A study of Mus musculus with 8 samples.

Results

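H3K27me3 was described at 5 mouse genes that encode receptor tyrosine kinases active in glioma and in its vessels, Egfr, Pdgfra, Kit, Kdr and Fgfr3. Each gene was represented by a fixed window in mm9, on chromosome 11 from 16645000 to 16820000 for Egfr, and on chromosome 5 from 75540000 to 75600000 for Pdgfra, from 75962000 to 76058000 for Kit, from 76322000 to 76382000 for Kdr and from 34058000 to 34083000 for Fgfr3. The genes were chosen on peaks of these same lists, so what separates the groups here is given as a description and carries no test. Together the windows spanned 416 kb and held 52 peaks, 50 of them in PT lists, and 26 of the 99646 regions made by merging the 5 lists.

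The libraries came from 2 stages of gliomagenesis. AstroEGFR cells (n = 2, replicates 1 and 3) were C57BL/6 astrocytes from the cerebral cortex at postnatal day 5, with a knockout of p16/p19 (the Ink4a/Arf locus) and a retroviral vector for human EGFRvIII, a constitutively active receptor. PT cells (n = 3, replicates 1, 3 and 4) were glioma propagating cells from tumours that such astrocytes formed in CD1 Nude mice, so that both groups carry the deletion and the vector. All were cultured for fewer than 10 passages, but AstroEGFR cells grew in serum and PT cells in serum-free medium with EGF and FGF2, which cannot be told apart from the stage. The peak lists hold no expression, so cell identity was not checked. PT cultures were grown from dissociated tumour, for which the study names no sort against host cells.

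H3K27me3 is deposited by Polycomb repressive complex 2 and is found over silent developmental genes, most often around CpG-rich transcription starts. Receptor tyrosine kinases span the membrane, bind growth factors outside the cell and phosphorylate themselves and their partners inside it, feeding the RAS and PI3K pathways. EGFR and PDGFRA are the receptors most often altered in malignant glioma, and PDGFRA, KIT and KDR are neighbours in the genome that can be amplified together. In brain, Pdgfra marks oligodendrocyte progenitors, Fgfr3 marks radial glia and astrocytes, and Kdr, the main VEGF receptor, marks endothelial cells.

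The lists of peaks differed in length. AstroEGFR 1 held 34021 peaks and AstroEGFR 3 held 3722, against 64504, 40090 and 66279 in PT 1, PT 3 and PT 4. Read depth is unknown, so a window without a peak only means that no peak was called there. AstroEGFR 1, PT 1 and PT 4 had 179 to 236 peaks on unplaced sequences and the other 2 lists had 0, and the summed value is therefore also given within these sets.

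Promoter sequences are shown because most of the length covered in the PT lists lay towards the 5′ side of the windows, as described below. They are the 250 bases before an annotated RefSeq start (GRCm38.p6, not the build of the lists), with each CpG in capitals.

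Egfr, chr11:16751953-16752202, plus strand: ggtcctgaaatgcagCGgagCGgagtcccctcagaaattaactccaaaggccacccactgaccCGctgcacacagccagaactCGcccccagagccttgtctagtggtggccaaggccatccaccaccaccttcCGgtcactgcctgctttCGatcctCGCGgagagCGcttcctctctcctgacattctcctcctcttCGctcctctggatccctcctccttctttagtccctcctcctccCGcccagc

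Pdgfra, chr5:75152001-75152250, plus strand: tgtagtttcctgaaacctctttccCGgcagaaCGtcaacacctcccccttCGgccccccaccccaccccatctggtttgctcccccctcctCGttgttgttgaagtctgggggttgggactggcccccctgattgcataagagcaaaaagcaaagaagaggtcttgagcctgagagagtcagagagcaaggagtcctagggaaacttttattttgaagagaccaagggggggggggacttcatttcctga

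Kit, chr5:75574737-75574986, plus strand: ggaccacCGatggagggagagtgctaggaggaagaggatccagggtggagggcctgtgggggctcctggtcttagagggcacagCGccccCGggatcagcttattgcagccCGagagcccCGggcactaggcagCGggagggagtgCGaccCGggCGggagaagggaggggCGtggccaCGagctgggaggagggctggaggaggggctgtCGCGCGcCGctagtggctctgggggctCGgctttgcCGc

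Kdr, chr5:75978456-75978705, minus strand: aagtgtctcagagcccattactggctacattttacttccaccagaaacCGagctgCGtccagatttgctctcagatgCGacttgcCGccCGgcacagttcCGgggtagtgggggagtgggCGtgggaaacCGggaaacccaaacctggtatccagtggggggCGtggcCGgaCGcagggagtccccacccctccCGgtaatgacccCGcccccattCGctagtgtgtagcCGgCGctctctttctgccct

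Fgfr3, chr5:33721474-33721723, plus strand: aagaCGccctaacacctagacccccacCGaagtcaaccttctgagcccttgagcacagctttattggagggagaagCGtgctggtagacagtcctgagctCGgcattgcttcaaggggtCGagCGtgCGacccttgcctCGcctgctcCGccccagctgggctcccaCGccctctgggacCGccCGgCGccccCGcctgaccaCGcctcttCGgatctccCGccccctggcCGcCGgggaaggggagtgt

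All 5 genes matched the RefSeq table, with 7 promoters of 300 bases (250 before and 50 after the start), since Kit and Fgfr3 each had 2 starts. Of these, 6 were richer in CpG than the median of 7 per promoter over the 32841 promoters of the table. The 2 Kit promoters begin at 75574737 and 75574741, so they are nearly the same sequence and are not independent in counts of promoters. By gene, all members but Pdgfra were richer than the median. The promoters of Fgfr3 held 26 and 30 CpG, those of Kit 20 and 21, that of Kdr 19 and that of Egfr 15. Pdgfra stood apart with 5 CpG and a G+C content of 51.0%, below the median of 52.7% in the table, whereas the other members had 60.7% to 73.0%. The letters GGGCGG, searched on both strands, were found in 6 of the 7 promoters (35.7% of all promoters), with 4 copies in the first promoter of Fgfr3 and 0 in Pdgfra. CCAAT was found in 1 member promoter (37.4% of all) and TATAAA in 0 (13.6% of all). These matches describe the letters of short windows and say nothing of a bound factor.

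Most of the covered length in the PT lists lay towards the 5′ side of the windows. Transcription starts in mm9 were not used here, and none was converted from another build. If a gene has the length it has in GRCm38 and lies wholly inside its window, its start must lie in the first 13295 bp of the window for Egfr, 13115 bp for Pdgfra, 14264 bp for Kit, 13754 bp for Kdr and 9655 bp for Fgfr3, counted in the direction of transcription. These stretches, called heads here, made up 15.4% of the windows. They held 40 of the 50 PT peaks and both AstroEGFR peaks. Of the length covered in the windows, 82.8% lay in the heads in the PT 1 list, 85.2% in that of PT 3 and 73.5% in that of PT 4. The heads ranged from 7.60% of the window at Egfr to 38.6% at Fgfr3. At Pdgfra and Kit they held all of the length covered in PT. At Egfr the head held 100% of it in PT 1 and PT 3 and 78.2% in PT 4. At Fgfr3 it held 64.8% in PT 1, 94.9% in PT 3 and 60.5% in PT 4, and at Kdr 100%, 59.2% and 79.0%. The position inside a head cannot be refined to the start itself, and a head may include sequence before the gene.

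**Figure D1:**
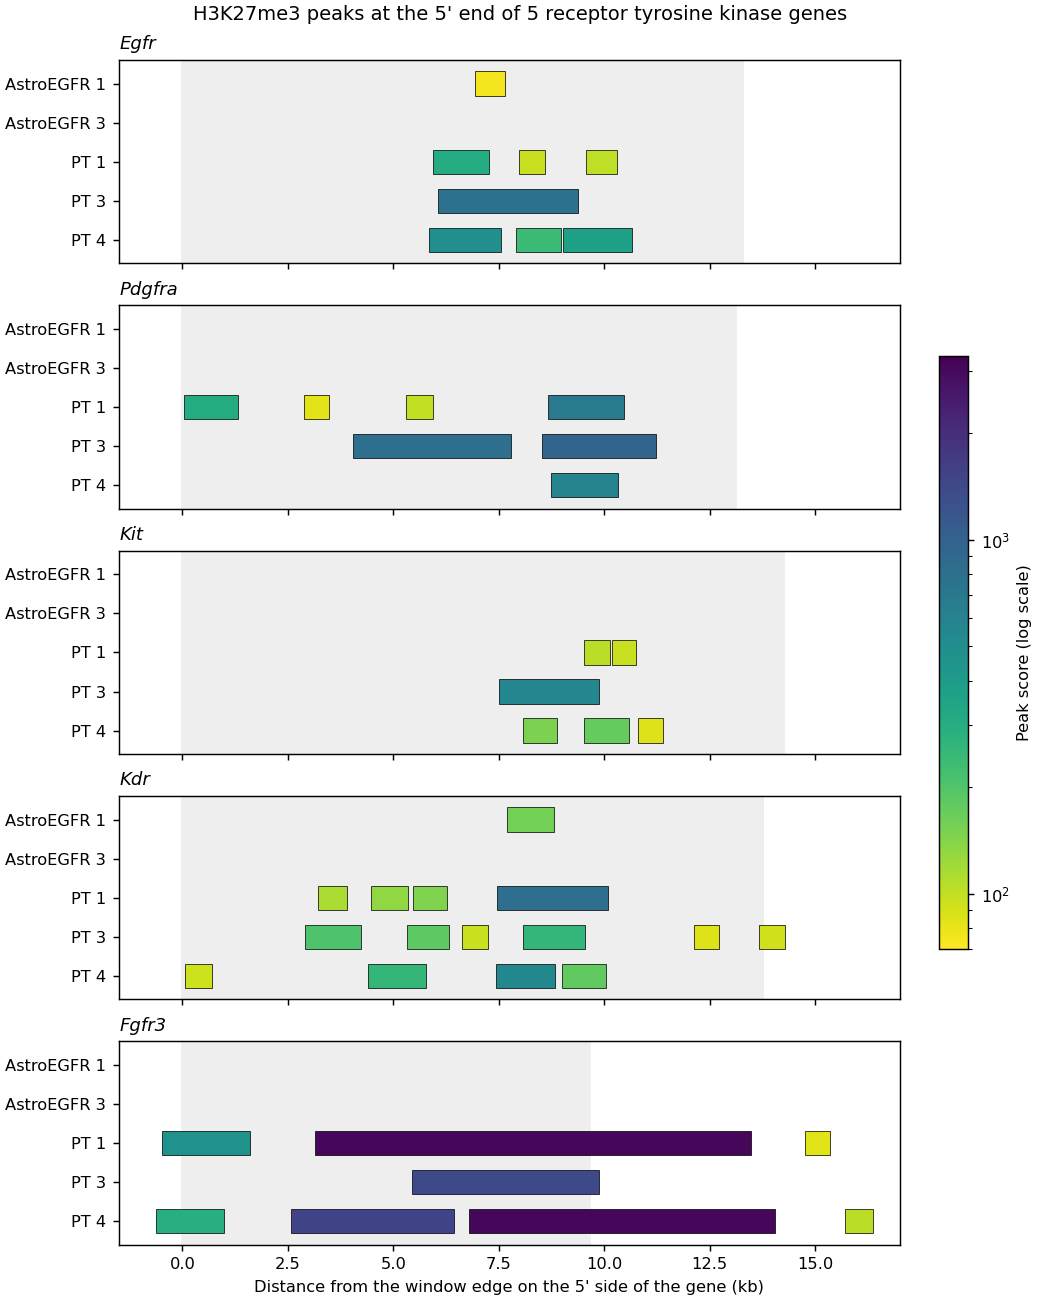
Peaks of the 5 lists (rows) at the 5′ side of each window. The x axis is the distance in kb from the window edge on the 5′ side of the gene, and the colour is the peak score on a log scale. Grey marks the head, which holds the start if the gene has its GRCm38 length and lies wholly inside the window. The PT peaks of Egfr and Kit in the head lie between 5841 and 11393 bp from the edge, those of Fgfr3 reach past the head, and AstroEGFR 1 has a single peak at Egfr and at Kdr.

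Over the 5 windows together, the peaks of PT 1 covered 25684 bp, those of PT 3 25134 bp and those of PT 4 28065 bp, against 1847 bp in AstroEGFR 1 and 0 bp in AstroEGFR 3. The PT lists thus lay close together, at 26294 ± 1558 bp (SD, n = 3) against 924 ± 1306 bp (SD, n = 2) in AstroEGFR. How often every PT list exceeds both AstroEGFR lists elsewhere in the genome was not counted. PT 3 covered as much here as PT 1 with a list of 40090 peaks rather than 64504. As a share, the windows were covered to 6.17% in PT 1, 6.04% in PT 3 and 6.75% in PT 4, compared with 3.54%, 1.58% and 3.41% of the autosomes in the same lists. AstroEGFR 1 showed the reverse relation, with 0.444% of the windows and 2.02% of the autosomes. AstroEGFR 3 covered only 0.135% of the autosomes, so its empty windows carry little information. PT exceeded AstroEGFR by 25028 bp when only AstroEGFR 1, PT 1 and PT 4 were compared, and by 25134 bp when only AstroEGFR 3 and PT 3 were compared.

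Fgfr3, Pdgfra and Kit had a peak in all 3 PT lists and in neither AstroEGFR list. Among back-to-back stretches of the same width along the autosomes, this pattern was found in 2.51% of those of 25 kb (the width of the Fgfr3 window), 3.92% of those of 60 kb (Pdgfra) and 4.72% of those of 96 kb (Kit). Egfr and Kdr had a peak in all PT lists and in AstroEGFR 1 but not in AstroEGFR 3. That pattern was found in 17.5% of the stretches of 175 kb (Egfr) and in 9.27% of those of 60 kb (Kdr), while 5.87% of the stretches of 175 kb had a peak in every PT list and in no AstroEGFR list. Of the 26 merged regions in the windows, 4 had a peak in every PT list and in no AstroEGFR list, 1 each at Pdgfra, Kit, Kdr and Fgfr3, beside 3.76% of all merged regions. Since the genes were chosen with this contrast known, nothing is read from these counts. A further 17 regions were marked in 1 library only, 7 in PT 3, 7 in PT 4 and 3 in PT 1. The share of all merged regions marked in 1 library only was not counted, so nothing is read from this number either.

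**Figure D2:**
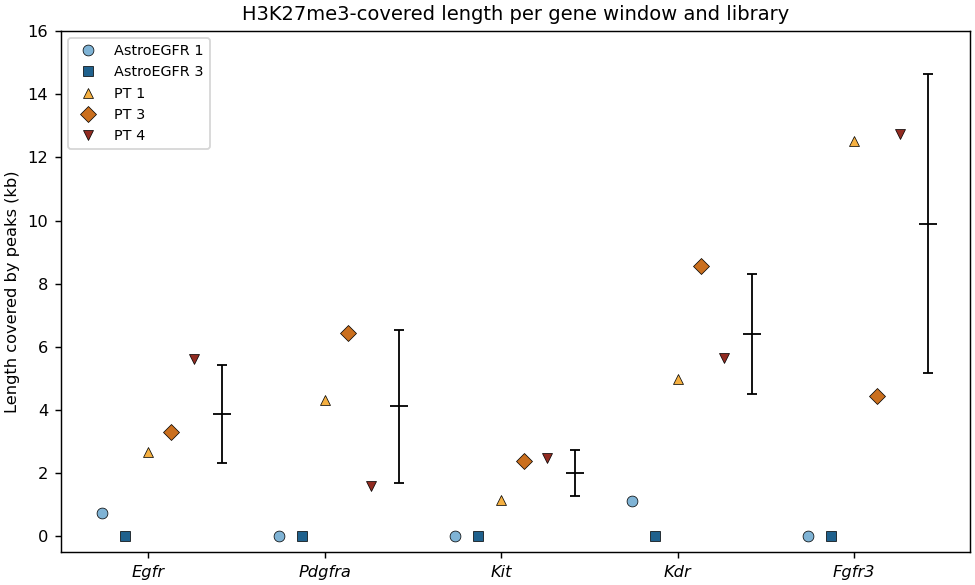
Length covered by peaks (kb, y axis) in each gene window (x axis) for each of the 5 libraries, with the mean and SD of the 3 PT libraries in black to the right of each gene. No PT point is at 0 and no AstroEGFR point exceeds the 1123 bp of Kdr, and PT 3 has the highest value at Pdgfra and Kdr and the lowest at Fgfr3.

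Fgfr3, a receptor for fibroblast growth factors, had the strongest peak of the 5 genes in every PT list and the highest mean covered length, although PT 3 covered more of Kdr and Pdgfra. Of its 25 kb window, peaks covered 12530 bp in the PT 1 list, 4440 bp in that of PT 3, 12746 bp in that of PT 4 and 0 bp in both AstroEGFR lists. This was 50.1%, 17.8% and 51.0% of the window, and PT 3 was low among the PT lists, giving 9905 ± 4734 bp (SD, n = 3). Its best peak scored 3100 in PT 1, 1407 in PT 3 and 3077 in PT 4, where the score is that of the peak caller, 10 times the negative log10 of a p-value, and 3100 is near its ceiling. As 1176 peaks of the PT 1 list scored 3100 or more, the values of PT 1 and PT 4 are not ordered here. These peaks stood at percentiles 99.0, 98.9 and 98.3 of their lists.

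In PT 1 the marking at Fgfr3 was a single peak of 10337 bp, from 34061134 to 34071470, and PT 4 held 2 peaks of 3865 and 7232 bp in its place. PT 3 held 1 peak of 4440 bp, from 34063441 to 34067880, that lay inside the PT 1 peak and spanned the gap between the PT 4 peaks. All 3 PT lists shared 4086 bp here, the longest shared length of the 5 genes. Beyond it, PT 1 and PT 4 had weaker peaks on both sides, and both had a peak that crossed the upstream window edge, with scores of 461 and 296. Upstream of the window the marking went on in these 2 lists, with 6 peaks in PT 1 and 5 in PT 4 in the next 10 kb, against 1 in PT 3. AstroEGFR 1 had its closest peak 63966 bp from the window, and AstroEGFR 3 166294 bp from it.

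Pdgfra, the receptor for PDGF that marks oligodendrocyte progenitors, was covered over 4325 bp in the PT 1 list, 6433 bp in that of PT 3 and 1592 bp in that of PT 4, and over 0 bp in both AstroEGFR lists. Here PT 3 was the highest and PT 4 the lowest, with a mean of 4117 ± 2427 bp (SD, n = 3). The best score was 688 in PT 1, 958 in PT 3 and 591 in PT 4, at percentiles 88.9, 97.9 and 88.5 of the lists. The 3 best peaks coincided: the single PT 4 peak, from 75548738 to 75550329 on chromosome 5, lay wholly inside the peaks of PT 1 (75548663 to 75550462) and PT 3 (75548532 to 75551220). This made a shared segment of 1592 bp, and whether that covers the Pdgfra promoter, the one poor in CpG, was not determined. Upstream of this segment PT 3 had another strong peak of 3744 bp with a score of 814, within which PT 1 had a peak of 641 bp with a score of 99.2 and PT 4 had none. The closest AstroEGFR peaks, with scores of 84.3 (AstroEGFR 1) and 70.5 (AstroEGFR 3), lay 49135 and 69023 bp away.

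Kit, the receptor for stem cell factor, had the lowest mean covered length of the members in PT, although Pdgfra was covered less in PT 4. PT 1 covered 1161 bp, PT 3 2380 bp and PT 4 2466 bp, against 0 bp in both AstroEGFR lists (PT mean 2002 ± 730 bp, SD, n = 3). PT 1 was low, with 2 peaks of scores 104 and 97.0 that were in the lower 50% of its list. In PT 4 the best of 3 peaks had a score of 175, at percentile 59.6. PT 3 again differed, with 1 peak of 2380 bp and a score of 560 at percentile 94.8. The 3 lists shared only 349 bp, from 75971530 to 75971878, since the PT 3 peak lay further upstream than those of PT 1. The closest AstroEGFR peaks were 218549 bp (AstroEGFR 1) and 222727 bp (AstroEGFR 3) away.

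Kdr, which encodes VEGF receptor 2, was covered over 4988 bp in the PT 1 list, 8568 bp in that of PT 3 and 5635 bp in that of PT 4. AstroEGFR 1 covered 1123 bp and AstroEGFR 3 covered 0 bp (PT mean 6397 ± 1908 bp, SD, n = 3). With only the 3722 strongest peaks of each list, as many as AstroEGFR 3 held, all 5 lists were at 0 bp. The gene lies on the minus strand, and its best marked segment was at the high-coordinate end of the window. There PT 1 had a peak from 76371922 to 76374539 with a score of 829, PT 4 had 2 adjoining peaks with scores of 179 and 543, and PT 3 had a peak of 1453 bp with a score of 260. The AstroEGFR 1 peak, from 76373185 to 76374307, had a score of 158 at percentile 58.8 and lay wholly within the PT 1 peak. It shared 733 bp with all 3 PT lists.

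Another segment at Kdr lay further upstream, from 76375680 to 76377593 in the merged lists. It was marked in all 3 PT lists, where PT 1 covered 1678 bp, PT 3 989 bp and PT 4 1364 bp, and had no peak in AstroEGFR. In GRCm38 the long non-coding RNA gene Gm32727 overlaps the 5′ end of Kdr and extends upstream, and whether the segment lies over it was not determined, since the builds differ. PT 3 also held 10 peaks in the Kdr window, more than PT 1 (4) and PT 4 (6), of which 4 were outside the head with scores of 91.4 to 217. PT 4 had 2 peaks outside the head and PT 1 had 0, and none of those of PT 3 overlapped one of PT 4. Some of these peaks may lie past the 3′ end of the gene, whose place in the window is not known.

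Egfr, the receptor for EGF and TGF-alpha, was covered over 2680 bp in the PT 1 list, 3313 bp in that of PT 3 and 5626 bp in that of PT 4. AstroEGFR 1 covered 724 bp and AstroEGFR 3 covered 0 bp (PT mean 3873 ± 1551 bp, SD, n = 3). The window concerns the mouse gene, which these cells carry beside the human EGFRvIII vector. PT 3 had 1 peak of 3313 bp with a score of 771 at percentile 96.9, from 16651068 to 16654380 on chromosome 11. PT 1 and PT 4 each had 3 peaks in the same merged region of 4809 bp, with best scores of 309 and 492 at percentiles 75.4 and 86.2. All 3 PT lists shared 1821 bp. The AstroEGFR 1 peak, from 16651929 to 16652652, had a score of 75.0 at percentile 8.44, and the lowest score of that list was 70.06. It lay wholly inside the PT 3 peak, and 616 bp of it lay in PT 4 peaks and 349 bp in a PT 1 peak. PT 4 alone had 2 small peaks of 639 and 589 bp in the distal body, the nearer one 151880 bp from the window edge, with scores of 114 and 84.9.

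**Figure D3:**
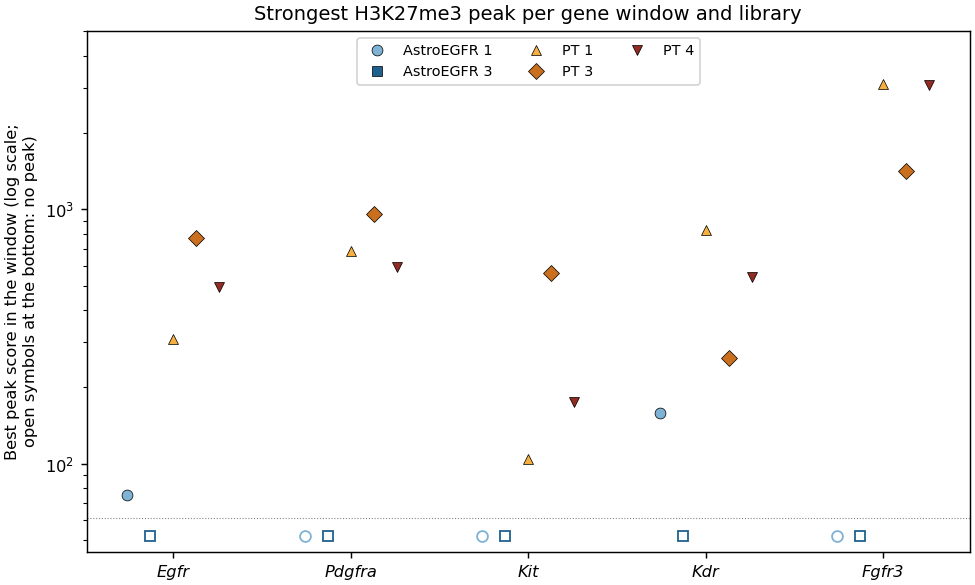
Score of the strongest peak (y axis, log scale) in each gene window (x axis) for each library, with open symbols below the dotted line where a list had no peak. PT 3 has the highest score at Egfr, Pdgfra and Kit and the lowest PT score at Kdr and Fgfr3, and Fgfr3 is the strongest gene in every PT list.

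The order of the genes differed between PT lists. By covered length, Fgfr3 came first in PT 1 and PT 4, where it made up 48.8% and 45.4% of the length covered over the 5 genes, but after Kdr and Pdgfra in PT 3, at 17.7%. Kit was last in PT 1 and PT 3, whereas in PT 4 Pdgfra was last. By best score, Fgfr3 was first in all 3 lists. Kdr came next to Fgfr3 in PT 1, after Fgfr3 and Pdgfra in PT 4 and last in PT 3. The ranges of covered length over the 3 PT lists overlapped between neighbouring genes in the order of their means except for Kit and Egfr, with 1161 to 2466 bp for Kit, 2680 to 5626 bp for Egfr, 1592 to 6433 bp for Pdgfra, 4988 to 8568 bp for Kdr and 4440 to 12746 bp for Fgfr3.

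PT 1 and PT 4, both of the set with peaks on unplaced sequences, matched each other best at 4 of the 5 genes. Base pairs in both lists divided by those in either were 0.767 at Fgfr3, 0.511 at Kdr, 0.381 at Kit and 0.368 at Pdgfra, compared with 0.354, 0.280, 0.109 and 0.293 for PT 1 with PT 3, and 0.312, 0.139, 0.319 and 0.247 for PT 3 with PT 4. At Egfr the 3 pairs were alike, at 0.476, 0.436 and 0.481. PT 3 had 5 of its 15 peaks in the windows among the 3722 strongest of its list, namely the peaks of Egfr, Kit and Fgfr3 and both of Pdgfra. PT 4 had 2 such peaks of its 19 in the windows and PT 1 had 1 of 16, all at Fgfr3. The 3722 strongest are a larger share of the PT 3 list (40090 peaks) than of those of PT 1 (64504) and PT 4 (66279). These counts are therefore not like for like. The part of the list type in these differences was not tested.

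Pdgfra, Kit and Kdr follow each other on chromosome 5, and in GRCm38 they are the only protein-coding genes among the 8 annotated genes from Pdgfra to Kdr. Over the 842 kb from the start of the Pdgfra window to the end of the Kdr window, PT 1 held 15 peaks, PT 3 held 31 and PT 4 held 17, of which 10, 13 and 10 lay in the windows, whereas AstroEGFR 1 held 2 and AstroEGFR 3 held 1. In the 362 kb between Pdgfra and Kit, peaks covered 0.327% in PT 1, 2.37% in PT 3 and 0.710% in PT 4, and in the 264 kb between Kit and Kdr 0.685%, 1.43% and 0.877%. The corresponding shares of the windows were 7.21%, 10.7% and 2.65% at Pdgfra, 1.21%, 2.48% and 2.57% at Kit and 8.31%, 14.3% and 9.39% at Kdr. Each window thus had a higher share than the gaps beside it in every PT list, by little at Kit in PT 3.

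A few positions in the gaps recurred between lists. Between 142456 and 142884 bp past the end of the Pdgfra window, AstroEGFR 1, PT 1 and PT 4 each had an overlapping peak of 567 to 701 bp, with scores of 79.3, 84.9 and 135. Between 34070 and 34198 bp from the low-coordinate edge of the Kdr window, its 3′ side, all 3 PT lists had a peak, scoring 90.4, 219 and 216 in PT 1, PT 3 and PT 4. PT 3 had a group of 5 peaks between 34794 and 42258 bp before the Kit window, the best with a score of 234, that no other list shared.

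**Figure D4:**
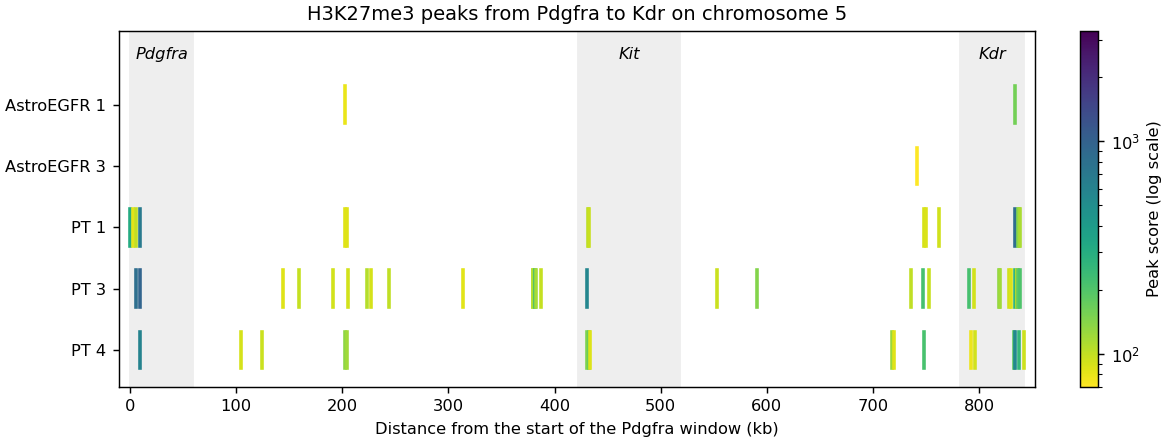
Peaks of the 5 lists (rows) along the 842 kb from Pdgfra to Kdr. The x axis is the distance in kb from the start of the Pdgfra window, grey marks the 3 gene windows, colour is the peak score on a log scale, and ticks mark peak centres and are wider than the peaks. In every PT list the strongest peak of the stretch is in the head of Pdgfra or Kdr, and PT 3 has the most peaks in the gaps.

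To place the windows within each list, their covered length was set beside that of every stretch of the same width on chromosomes 1 to 19. Fgfr3 exceeded 98.3% of the 25 kb stretches in the PT 1 list, 97.6% in that of PT 3 and 98.5% in that of PT 4. Kdr exceeded 87.8%, 97.2% and 89.5% of the 60 kb stretches, and Pdgfra 86.8%, 96.0% and 79.9%. Kit was lower, above 71.1%, 84.6% and 76.9% of the 96 kb stretches, and Egfr above 68.5%, 80.2% and 76.4% of the 175 kb stretches. Of the stretches of 175 kb, 46.0%, 43.9% and 47.7% held a peak in these lists, and against chromosome 11 alone it was 50.6%, 72.4% and 59.3%. For the other genes the chromosome alone changed the rank by less than 1 percentage point. In AstroEGFR 1, Kdr ranked above 84.9% and Egfr above 67.2% of the stretches, and the other 3 windows had no peak, where 25.6% of the stretches of 96 kb, 19.9% of those of 60 kb and 12.5% of those of 25 kb had one. Both Kdr (1123 against 3025 bp) and Egfr (724 against 4595 bp) were below the median of the stretches with a peak in that list.

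**Figure D5:**
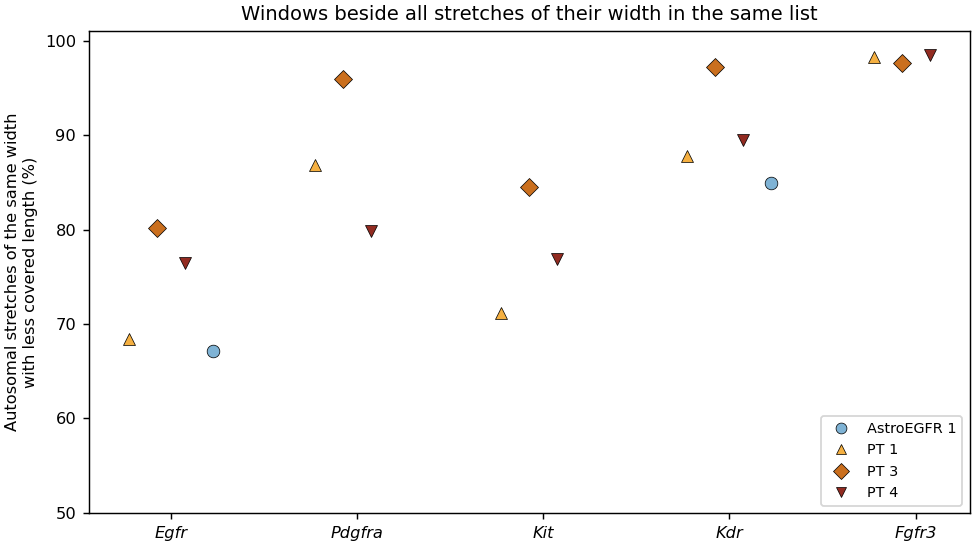
Share of autosomal stretches of the same width (%, y axis, from 50) that had less covered length than the gene window (x axis) in the same list, for the PT lists and, where it had a peak, AstroEGFR 1. Stretches without a peak, the majority at every width, are included. Fgfr3 lies at 97.6% or above in all 3 PT lists, PT 3 is the highest PT list at the other 4 genes, and Egfr and Kit are lowest.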

How the data were processed

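H3K27me3 chromatin immunoprecipitation was sequenced in 2 AstroEGFR and 3 PT libraries, and 3 input libraries were not analysed here. The submitters' processing notes name Bowtie 0.12.9, MACS 1.4.1 and mm9. Each deposited list gave the start, end and score of every peak, called by the authors per library and not pooled; for this version of MACS the deposited score is 10 times the negative log10 of a p-value. The input used, the number of reads and any filter are not given in the sources used here.

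Windows were taken as stated, and covered length is the summed width of peaks inside them. Positions are counted from 1. A region of the merged lists counted as marked with 1 bp of overlap. Gene names, strands, lengths, gene order and promoter sequences come from RefSeq tables of GRCm38.p6, and no coordinates were converted. The planned list of other receptors and ligands needed starts in mm9 and was not run. The members and lists were chosen with earlier results of these data known, so no test was made; with 2 against 3 libraries an exact permutation test could not give less than 0.1. All 5 genes are described. The study describes independent astrocyte batches and the tumours they gave, without saying which batch gave which PT library.

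Lists were read with Python 3.11.15, pandas 2.3.3 and numpy 2.4.6, drawn with matplotlib 3.10.9, and the overlap functions were tested on simulated data and checked against bedtools 2.31.1. Alternatives by score, list length, window edge, overlap, merging gap and omitted library are given at the end.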

Additional observations from a re-analysis of the deposited data

How the results depend on the processing

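The covered length over the 5 genes was higher by 25371 bp in PT than in AstroEGFR, and was higher in PT under all 15 alternatives. The difference was 22927 bp with scores of at least 100, 21531 bp in the upper 50% of each list, 12667 bp with the 3722 strongest peaks per list, 28870 bp and 20883 bp with windows widened by 10000 bp or narrowed by 5000 bp at each side, and 15466 bp without Fgfr3 or 19535 bp without Kdr (both chosen after seeing the data, as was the separation of the 2 sets of lists). The 3 genes with a peak in every PT list and in no AstroEGFR list became 1 (Fgfr3) with equal numbers of peaks, and 3 to 5 with each library omitted in turn, 5 being reached without AstroEGFR 1. In the upper 50% of each list the count was again 3, but Egfr was in and Kit was out. The count of genes was 4 with scores of at least 100. It stayed at 3 with widened or narrowed windows, and when 500 bp of a window had to be covered. The 4 acquired regions became 1 with equal numbers of peaks, and 4 to 7 with each library omitted in turn, 7 being reached without PT 3. They numbered 5 with scores of at least 100, with widened windows, or when 25% of a region had to be covered. In the upper 50% of each list and with narrowed windows they remained 4. When neighbouring peaks as far as 1000 bp apart were joined, 3 were left. With AstroEGFR 1, PT 1 and PT 4 alone there were 3 such genes and 7 regions, and with AstroEGFR 3 and PT 3 alone 5 genes and 15 regions, where fewer lists had to share them. By gene, PT was higher in 54 of 55 alternatives, the exception being Kdr with equal numbers of peaks, where no list held one. In that setting Egfr, Pdgfra and Kit were covered in PT 3 alone and were at 0 bp in PT 1 and PT 4, as in AstroEGFR. Equal numbers keep all of the AstroEGFR 3 list, and a smaller share of the PT 1 and PT 4 lists than of the shorter PT 3 list. The setting is thus strictest in PT 1 and PT 4. At Pdgfra, Kit and Fgfr3 both AstroEGFR lists were at 0 bp, so any PT peak that remained made PT higher there. The alternatives also count the setting without PT 4 again as the replicate block. As the genes were chosen with this contrast known, these tallies of direction are no support for it.

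Libraries 1 and 3 exist in both groups, but no label says that they pair an astrocyte batch with its tumour. The replicate block (paired) difference was 24486 bp, which is by construction that without PT 4. Since read depth is unknown and AstroEGFR 3 has a short list, an absent peak is not an absent mark.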
